A study of Mus musculus with 4 samples.

Results

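The genes described here are imprinted genes of the fetal growth network, measured in mouse lung 10 days after bleomycin. The list held 10 genes, namely H19, Meg3, Rian, Dlk1, Peg3, Plagl1, Mest, Grb10, Ndn and Slc38a4. Of these, 7 had an array row annotated to exactly 1 gene symbol, among 30142 genes tested, and each had 1 such row. H19, Meg3 and Rian appeared only in rows that name several symbols, such as the microRNA and small nucleolar RNA genes inside them, so no value is given for these 3 transcripts. The list was selected from the bleomycin against PBS contrast itself, in part because Slc38a4 stood among the largest decreases. The members' own values are therefore given as a description, with no test.

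The samples were C57BL/6 lung cells depleted of CD45-positive leukocytes and hybridised to 4 Affymetrix arrays. The BLM group (n = 2) had received bleomycin, a DNA-damaging drug that injures the lung epithelium and leads to fibrosis, into the trachea. The PBS group (n = 2) had received phosphate-buffered saline by the same route, and both groups were collected after 10 days. The labels state no sex, no age and no number of animals per sample. Whether the 2 samples of a group are from different mice is not stated either, and the p-values therefore reflect only how far these particular arrays spread, part of which may be technical. Levels are log2 expression values as deposited, 1 unit being a doubling, and a difference is the BLM mean minus the PBS mean. A level belongs to its own probe set and was not set against that of another single gene. Where a level is set against the median level of all genes, that is only a rough guide.

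Imprinted genes are expressed mainly from the copy inherited from a given parent. For most of them this follows from DNA methylation laid down in egg or sperm, which marks the parental copies differently. Many act on fetal and placental growth, are abundant before birth and decline in most tissues afterwards. In mice, paternally expressed genes tend to promote growth and maternally expressed genes to restrain it, and several of them have been described as a co-expressed network that includes the transcription factor Plagl1. The arrays measured total RNA from both copies, so allelic expression was not measured here.

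Promoter sequence from RefSeq (GRCm38.p6) is shown for 3 members, because CpG dinucleotides are the letters that imprint methylation acts on and these windows span their range. Each window holds 250 bases before and 50 bases after the annotated start, is written 5′ to 3′ on the minus strand, and has every CG in capitals. The first is Grb10 at chr11:12037371-12037670, the second Peg3 at chr7:6730370-6730669 and the last Slc38a4 at chr15:97055907-97056206.
Grb10: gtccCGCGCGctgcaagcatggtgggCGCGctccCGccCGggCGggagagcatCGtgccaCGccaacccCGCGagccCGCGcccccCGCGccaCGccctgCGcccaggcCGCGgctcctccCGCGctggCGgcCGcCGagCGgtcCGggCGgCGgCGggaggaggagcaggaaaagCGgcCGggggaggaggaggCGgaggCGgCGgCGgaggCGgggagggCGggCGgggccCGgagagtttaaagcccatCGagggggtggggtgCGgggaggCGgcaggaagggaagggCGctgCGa
Peg3: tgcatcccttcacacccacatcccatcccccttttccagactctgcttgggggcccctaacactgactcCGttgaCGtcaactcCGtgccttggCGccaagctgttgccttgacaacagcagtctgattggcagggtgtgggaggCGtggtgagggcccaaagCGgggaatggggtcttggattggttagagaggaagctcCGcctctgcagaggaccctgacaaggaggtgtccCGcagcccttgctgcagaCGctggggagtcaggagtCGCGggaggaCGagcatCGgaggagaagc
Slc38a4: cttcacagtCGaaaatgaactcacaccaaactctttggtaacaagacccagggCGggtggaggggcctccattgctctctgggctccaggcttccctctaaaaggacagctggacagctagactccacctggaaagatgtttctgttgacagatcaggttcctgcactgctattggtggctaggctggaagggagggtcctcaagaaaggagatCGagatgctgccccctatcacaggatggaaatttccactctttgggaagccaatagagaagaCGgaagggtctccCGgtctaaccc

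The Grb10 window held 45 CpG, more than 98.1% of the 32851 promoter windows in the RefSeq table. Peg3 held 13, more than 62.1% of windows. Slc38a4 held 5, more than 38% of windows, and its other listed starts held 5 each as well. Among all windows the median was 7 CpG, with quartiles of 3 and 20. The remaining windows lay between these members, with 26 CpG for Plagl1, 8 to 17 for the 3 starts of Mest, 11 for Ndn, 9 for Dlk1 and 9 for a second start of Grb10. The letters GGGGCCCC, a motif known for binding PLAGL1, read the same on both strands and were searched in all windows. They occurred in 1 of 12 windows of the members, that of Peg3 shown above, and in 354 of all windows (1.08%). A match of letters is a description and shows no binding.

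The members did not move as a block. The BLM mean lay above the PBS mean for Grb10, Mest, Peg3, Ndn and Dlk1, and below it for Plagl1 and Slc38a4. The differences ran between -3.32 for Slc38a4 and 1.44 for Grb10, with a median of 0.59 beside 0.05 over all genes. The BLM and PBS arrays did not overlap for 7 of 7 members, a state shared by 63.3% of all genes. That count and the members' median follow from the contrast used to choose the list and carry no further evidence. Fold differences of at least 2 were seen for 3 members, Grb10, Mest and Slc38a4, and this count likewise carries no further evidence.

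**Figure D1:**
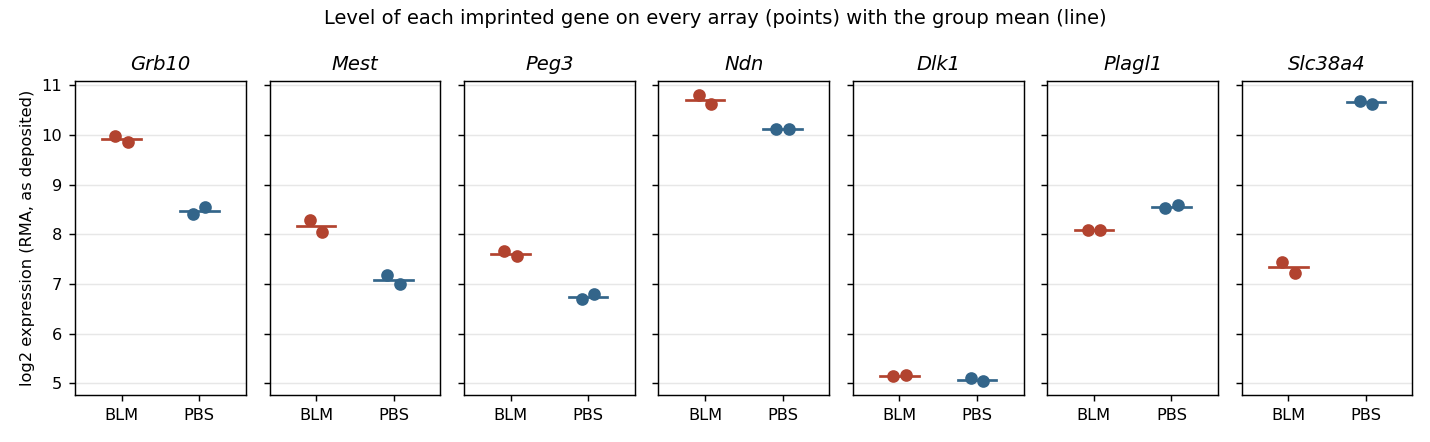
Level of each of the 7 imprinted genes (log2 expression as deposited, vertical axis) on the 2 BLM arrays and the 2 PBS arrays, with points for arrays and a line for the group mean. The genes are ordered by difference, with Grb10 at 9.97 and 9.85 in BLM above its PBS arrays at the left, and Slc38a4 at 7.45 and 7.23 in BLM far below its PBS arrays at the right.

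Grb10 encodes an adaptor protein that binds the insulin and IGF1 receptors and dampens their signalling, and in most mouse tissues it is expressed from the maternal copy. Its level was 9.97 and 9.85 on the BLM arrays, against 8.40 and 8.55 on the PBS arrays. Both BLM arrays lay above both PBS arrays, with a gap of 1.30 between the groups. The means were 9.91 ± 0.0855 in BLM and 8.47 ± 0.104 in PBS (SD, n = 2 each), a difference of 1.44 (SE 0.0977), or 2.71-fold. It was 348th of all genes counted from the largest increase.

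Mest encodes an endoplasmic reticulum protein of the alpha/beta hydrolase family, named for its expression in mesoderm and transcribed from the paternal copy. Its level was 8.29 and 8.05 on the BLM arrays, against 7.17 and 7.004 on the PBS arrays. The groups were separated by 0.88, while the BLM arrays differed from each other by 0.24 and the PBS arrays by 0.17. The means were 8.17 ± 0.169 in BLM and 7.09 ± 0.119 in PBS (SD, n = 2 each), a difference of 1.08 (SE 0.119), or 2.12-fold. Leaving out each array in turn gave between 0.96 and 1.20, so the difference did not always reach 2-fold.

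Peg3 encodes a paternally expressed zinc finger protein. Its level was 7.65 and 7.56 on the BLM arrays, against 6.69 and 6.79 on the PBS arrays. The arrays of a group lay within 0.10 of each other and the groups were 0.76 apart. The difference of the means was 0.86 (SE 0.089), or 1.82-fold.

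Ndn encodes necdin, a MAGE family protein that restrains cell proliferation and is transcribed from the paternal copy in the region deleted in Prader-Willi syndrome in humans. Its level was 10.80 and 10.62 on the BLM arrays, against 10.12 and 10.12 on the PBS arrays. The groups did not overlap, and the PBS arrays were nearly identical. The difference was 0.59 (SE 0.0948), or 1.5-fold. Leaving out each array in turn gave between 0.50 and 0.68.

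Dlk1 encodes a transmembrane protein with EGF-like repeats that holds back adipocyte differentiation, and it is a paternally expressed gene of the same domain as Meg3 and Rian. Its level was 5.14 and 5.16 on the BLM arrays, against 5.09 and 5.05 on the PBS arrays. Both BLM arrays lay above the PBS arrays, by a gap of 0.05. The difference was 0.08 (SE 0.0796), about the size of its error. All 4 values lay under 6.03, the median level over all genes.

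Plagl1, also called Zac1, encodes a zinc finger transcription factor that can arrest the cell cycle and is expressed from the paternal copy. Its level was 8.09 and 8.09 on the BLM arrays, against 8.52 and 8.58 on the PBS arrays. Both BLM arrays lay below both PBS arrays, opposite in direction to the other measured transcription regulator, Peg3. The difference was -0.46 (SE 0.0802), or 1.38-fold lower. Leaving out each array in turn gave between -0.49 and -0.43.

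Slc38a4 encodes a sodium-coupled transporter of neutral and cationic amino acids, known for its abundance in liver and placenta. In some mouse tissues it is expressed from the paternal copy. Its level was 7.45 and 7.23 on the BLM arrays, against 10.69 and 10.63 on the PBS arrays. The gap of 3.18 between the groups was far wider than the distance between arrays of a group, at most 0.22. The means were 7.34 ± 0.155 in BLM and 10.66 ± 0.0382 in PBS (SD, n = 2 each), a difference of -3.32 (SE 0.105), or 9.99-fold lower, and its value in the BLM samples stayed above the median level of all genes. Leaving out each array in turn gave between -3.43 and -3.21.

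Slc38a4 was 6th of all genes counted from the largest decrease. The 3 genes next below it were Cyp2a4, a cytochrome P450, at -4.13, Aox3, an aldehyde oxidase, at -4.09, and Mcpt8, a basophil protease, at -3.74. The 3 next above it were Eid3 at -3.23 and the circadian clock genes Per2 at -3.19 and Per3 at -3.16. These values describe its place in the order and say nothing of shared control.

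**Figure D2:**
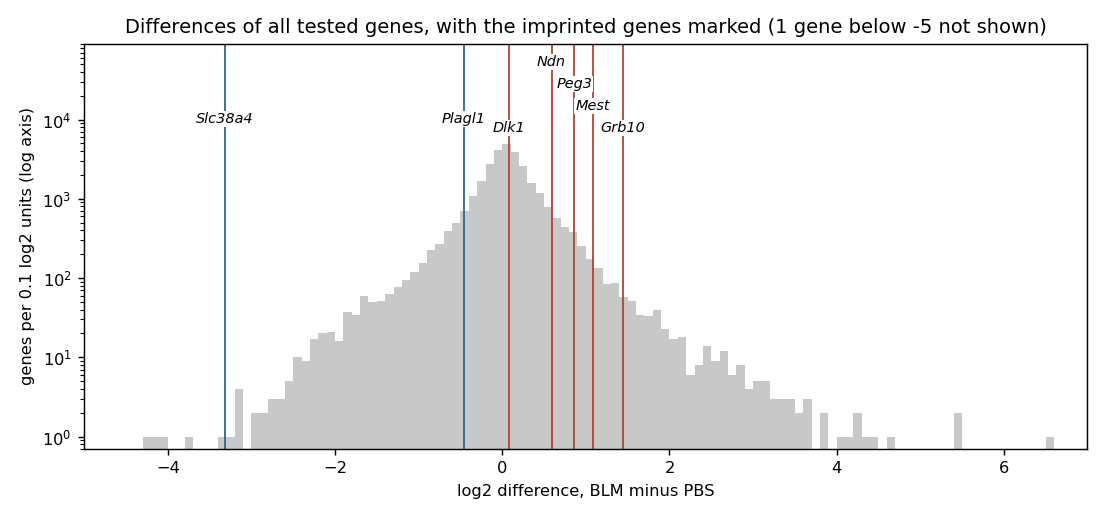
Number of genes (vertical log axis) in bins of the log2 difference, BLM minus PBS (horizontal axis), with a line for each of the 7 imprinted genes, red where the BLM mean was higher and blue where it was lower. Slc38a4 at -3.32 stands at the thin left edge of the distribution, Dlk1 at 0.08 near its centre and Grb10 at 1.44 on its right flank.

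Genes other than the members were tested at a limma adjusted p under 0.05, and are said to have risen or fallen where they passed it. Of all genes 25.3% passed, 15.2% higher and 10.1% lower in BLM. Cell type markers measured on the same arrays differed along with the imprinted genes. Fibroblast markers rose in 7 of 7 measured genes, and their mean level was 13.06 and 13.02 on the BLM arrays, against 10.56 and 10.60 on the PBS arrays. Epithelial markers fell in 4 of 7, with mean levels of 14.95 and 14.88 in BLM and 15.48 and 15.48 in PBS. Those that fell were Epcam, Cdh1, Sftpb and Scgb1a1. Krt8, Sftpc and Ager differed by -0.19, 0.12 and 0.31 and did not pass, although Ager, a marker of alveolar type I cells, passed as higher with the filter on dim genes. Mesothelial markers rose in 4 of 5, with mean levels of 7.96 and 8.01 in BLM and 6.69 and 7.06 in PBS, and of these calls that of Upk3b was lost without either BLM replicate. Endothelial markers rose in 3 of 7, with mean levels of 13.03 and 12.83 in BLM and 12.21 and 12.38 in PBS. These were Emcn at 2.63, Cdh5 at 0.85 and Kdr at 0.42, and the call of Kdr was lost with the replicate block, without any of the 4 arrays and with cyclic loess. Tek differed by -0.25 and did not pass, although it passed as lower with cyclic loess. Leukocyte markers, which the depletion should have removed, rose in 6 of 9, with mean levels of 8.02 and 8.05 in BLM and 6.27 and 6.31 in PBS. Those that rose were Ptprc, Cd68, Adgre1, Ctss, Laptm5 and Itgax. Coro1a, Cd3e and Cd79a differed by 0.32, 0.33 and -0.15 and did not pass, although Coro1a passed as higher with the filter on dim genes. Ptprc, which encodes CD45, was 7.19 and 7.20 in BLM, against 6.30 and 6.21 in PBS. Array values have no zero, and none of these markers can be called absent. In such bulk RNA, fewer cells of a type and less RNA per cell cannot be told apart, and the part of these marker differences in the imprinted genes was not tested.

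The arrays also differed in sex-linked genes. Xist, the RNA that silences an X chromosome in female cells, was 5.60 and 5.43 on the BLM arrays, against 15.86 and 15.61 on the PBS arrays. The Y-linked genes Kdm5d, Uty and Eif2s3y were higher in BLM by 2.14, 2.44 and 2.63. By these genes the PBS arrays had a female pattern and the BLM arrays a male one, although the labels state no sex. Treatment and this split cannot be told apart for any gene in these samples. No measured member lies on X or Y. The arrays of a group agreed closely over all genes, with Pearson r of 0.997 within either group and 0.979 to 0.981 between groups, and array medians were 5.44 to 5.49. Of the genes past the threshold 60.1% were higher in BLM, and 49.6% after cyclic loess scaling, which moved the median difference of all genes to -0.004.

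The genes beside each member on its chromosome were read to see whether the differences extended along it. The 3 nearest tested protein-coding genes on each side, by RefSeq order, gave 42 genes, picked by position after the values were known. Of these, 5 rose and 4 fell, which is 21.4% past the threshold against 25.3% of all genes, and 33 were not past it. None of the 12 neighbours of Peg3 and Mest passed, and most were dimmer than 6.03, the median level over all genes. Beside Peg3, the imprinted genes Usp29 and Zim1 differed by -0.13 and 0.12 and did not pass. Their levels were 3.93 to 4.14 and 5.14 to 5.48. In genes this dim, a missing call says little about whether a difference extended along the chromosome. Beside Mest, Copg2, a coat protein gene transcribed toward it, differed by -0.28 (limma adjusted p = 0.073), though it passed with the filter on dim genes, with a trended prior and with cyclic loess.

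The neighbours of Grb10 included a gene moving the opposite way. Cobl, which encodes an actin nucleator, fell to 8.34 and 8.48 on the BLM arrays, against 9.59 and 9.62 on the PBS arrays, a difference of -1.19 (SE 0.0896, limma adjusted p = 0.0011). Ikzf1, a lymphoid transcription factor, rose by 0.40 (limma adjusted p = 0.0185), a call lost without any of the 4 arrays. Ddc, an imprinted neighbour that encodes a decarboxylase, was not past the threshold at 0.31 (limma adjusted p = 0.0502) and passed when X and Y genes were left out.

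Around Plagl1, 3 genes rose and 1 fell. Sf3b5, a splicing factor subunit, rose by 0.85 (limma adjusted p = 0.00222), Ltv1, a ribosome assembly factor, by 0.62 and Stx11, a syntaxin of immune cells, by 0.57. Utrn, the dystrophin relative utrophin, fell by 0.52 (limma adjusted p = 0.00893). Each of these 4 calls except that of Sf3b5 was lost without BLM replicate 2, and those of Ltv1 and Utrn also without BLM replicate 1. Beside Ndn, Atp10a fell by 0.50 (limma adjusted p = 0.0142), a call lost without either BLM replicate or PBS replicate 1, while Magel2, another gene of the MAGE family, differed by -0.11 and was not past the threshold. Beside Dlk1, the phosphatase subunit gene Ppp2r5c rose by 0.60 (limma adjusted p = 0.00701), and Dio3, the imprinted deiodinase gene at the far end of the domain, differed by 0.26 (limma adjusted p = 0.0766).

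**Figure D3:**
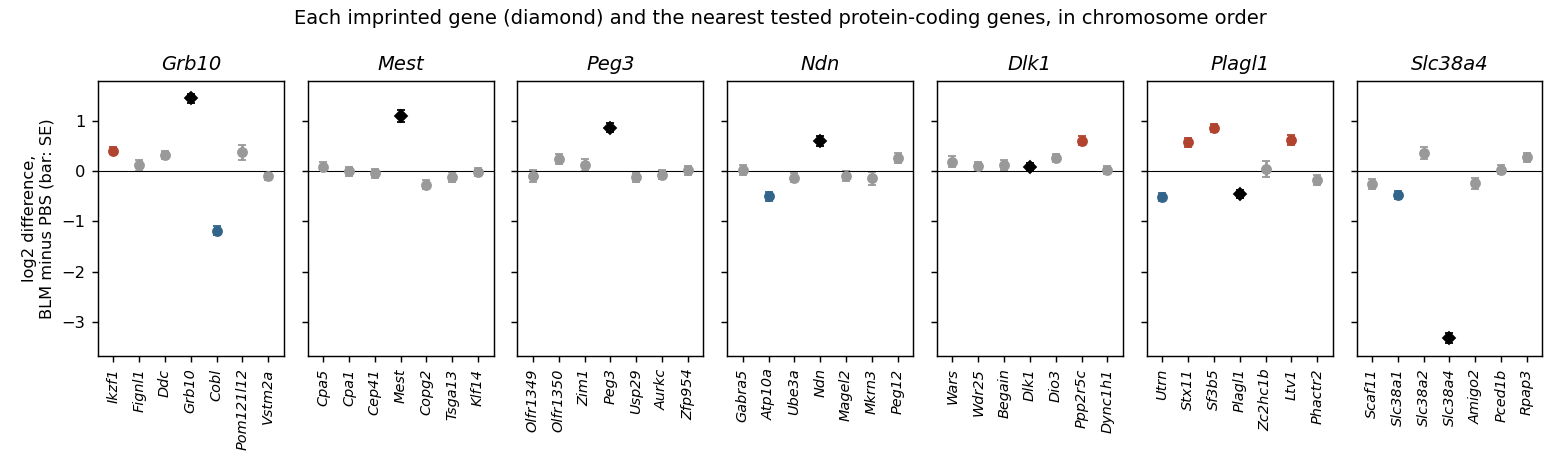
Log2 difference, BLM minus PBS (vertical axis, bars are SE), of each imprinted gene (black diamond) and its 3 nearest tested protein-coding genes on each side in chromosome order (circles, red where higher and blue where lower at an adjusted p under 0.05, grey where not past it). Slc38a4 at -3.32 lies far below its neighbours, which range between -0.48 and 0.36, and Cobl at -1.19 lies opposite Grb10 at 1.44.

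Slc38a1 and Slc38a2, transporters of the same family, neighbour Slc38a4 on chromosome 15. Slc38a1 fell to 7.43 and 7.41 on the BLM arrays, against 7.91 and 7.88 on the PBS arrays, a difference of -0.48 (SE 0.0789, limma adjusted p = 0.0107) that was no longer called without either BLM replicate. Slc38a2 was 11.14 and 11.04 in BLM, against 10.59 and 10.87 in PBS, a difference of 0.36 (limma adjusted p = 0.0869), and it passed the threshold without PBS replicate 2 and with the filter on dim genes. The imprinted transporter thus stood 3.32 lower beside a neighbour that fell by 0.48 and one that was not past the threshold.

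Over the wider family of system A and N amino acid transporters, 10 genes other than Slc38a4 were measured, of which 1 rose, 1 fell and 8 were not past the threshold. That is 20% called, against 25.3% of all genes, with a median difference of 0.06. Slc38a5, a glutamine transporter gene on the X chromosome, rose to 8.46 and 8.39 on the BLM arrays, against 7.36 and 7.52 on the PBS arrays (difference 0.99, SE 0.0952, limma adjusted p = 0.00215). Xist separated the same groups, as given above. The 7 other genes not past the threshold, apart from Slc38a2, differed by -0.13 to 0.19.

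**Figure D4:**
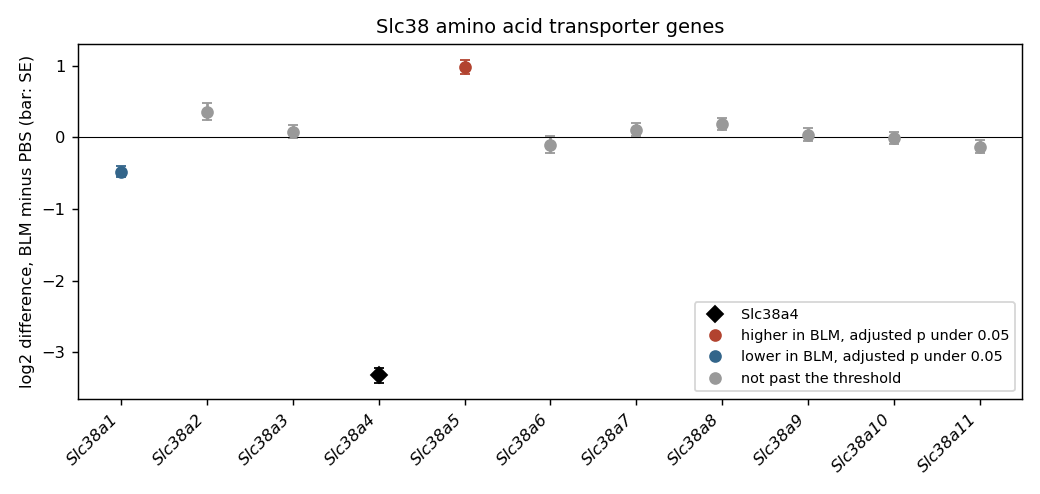
Log2 difference, BLM minus PBS (vertical axis, bars are SE), of Slc38a4 (black diamond) and the 10 other measured Slc38 genes (circles, red where higher and blue where lower at an adjusted p under 0.05, grey where not past it). Slc38a4 at -3.32 lies below all others, which range between -0.48 for Slc38a1 and 0.99 for Slc38a5.

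Among other relatives of the members, the adaptors most like Grb10 went the other way. Grb7 fell to 8.12 and 8.15 on the BLM arrays, against 9.45 and 9.54 on the PBS arrays, a difference of -1.36 (SE 0.0832, limma adjusted p = 0.000638). Grb14, which like Grb10 binds the insulin receptor, fell to 9.65 and 9.54 in BLM, against 11.01 and 10.86 in PBS, a difference of -1.34 (SE 0.0958, limma adjusted p = 0.000971). For both genes the groups did not overlap. Of the MAGE family relatives of Ndn, the X-linked Maged1 rose by 0.79 and Maged2 by 0.78 (limma adjusted p = 0.00255 and 0.00666), while Mageh1 and Magee1, also X-linked, differed by 0.13 and -0.01 and were not past the threshold. Nsmce3, another member of the family, differed by 0.41 (limma adjusted p = 0.0551) and passed with the replicate block and without PBS replicate 2. Plag1 and Plagl2, the relatives of Plagl1, differed by -0.17 and 0.07, and Dlk2 by -0.05, and these 3 were not past the threshold. In all, 2 of the 10 relatives rose and 2 fell, which is 40% called against 25.3% of all genes, and both that rose are X-linked.

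The IGF pathway, which Grb10 restrains and imprinted Igf2 and Igf2r feed into, was read next. Igf1, the growth factor of postnatal life, rose to 10.27 and 10.37 on the BLM arrays, against 7.13 and 6.82 on the PBS arrays (difference 3.34, SE 0.127, limma adjusted p = 0.000294). Its receptor gene Igf1r fell to 9.005 and 8.96 in BLM, against 9.79 and 9.83 in PBS (difference -0.83, SE 0.0809, limma adjusted p = 0.00219). Ligand and receptor transcripts thus moved in opposite directions, and the adaptor gene Irs1 fell by 0.46 (limma adjusted p = 0.0374), a call lost with the replicate block and without PBS replicate 2 or either BLM replicate. Irs2, another adaptor gene, and Igf2bp3, an RNA-binding protein gene, differed by -0.22 and 0.11 and were not past the threshold, although Irs2 passed with cyclic loess. Thus of 5 measured genes of the pathway list 1 rose and 2 fell, which is 60% called against 25.3% of all genes. With the replicate block, and without PBS replicate 2 or either BLM replicate, 2 of the 5 were called. The fetal ligand Igf2 was 6.21 and 6.11 in BLM, against 6.39 and 6.28 in PBS, a difference of -0.18 (limma adjusted p = 0.215). Igf2r, the receptor that clears IGF2, differed by 0.27 (limma adjusted p = 0.0645) and passed with the filter on dim genes and with a trended prior.

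Other imprinted genes, listed by known imprinting, were called about as often as all genes. Whether each of them is imprinted in lung cells was not measured. Of 61 listed, 54 were measured, of which 6 rose, 8 fell and 40 were not past the threshold. That is 25.9% called, against 25.3% of all genes, with a median difference of -0.02, and 23 of the 54 were dimmer than the median gene. Rtl1, Mirg and Snrpn appeared only in rows of several symbols and are not analysed here.

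The increases were led by Tfpi2, a protease inhibitor gene, which rose to 6.66 and 6.73 on the BLM arrays, against 4.99 and 5.26 on the PBS arrays (difference 1.57, SE 0.117, limma adjusted p = 0.00107). Gatm, which encodes an enzyme of creatine synthesis, rose by 1.27 (limma adjusted p = 0.000829), H13, a signal peptide peptidase gene, by 0.86, Cd81, a tetraspanin gene, by 0.59 and Commd1, a gene of copper and receptor trafficking, by 0.56. The call of Commd1 was lost without BLM replicate 1. Among the decreases, Pon3, a lactonase gene, fell to 11.91 and 11.78 on the BLM arrays, against 13.64 and 13.70 on the PBS arrays (difference -1.83, SE 0.0909, limma adjusted p = 0.000418). Ppp1r9a, which encodes the actin-binding protein neurabin, fell by 1.78 (limma adjusted p = 0.000585). Tfpi2, Ppp1r9a and Pon3 belong to the same domain as Peg10, so that genes of a single imprinted domain moved in both directions. Peg10 itself, a retrotransposon-derived gene, fell by 0.31 (limma adjusted p = 0.0461), and that call was lost with the replicate block, without any of the 4 arrays and with a trended prior. Sgce, the sarcoglycan gene beside Peg10, differed by 0.05 and was not past the threshold.

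In the Kcnq1 domain, 3 of 11 genes fell, 1 rose and 7 were not past the threshold, where 10.1% of all genes fell and 15.2% rose. Kcnq1ot1, the paternally expressed long noncoding RNA that silences its neighbours in cis, fell to 7.19 and 7.11 on the BLM arrays, against 7.96 and 8.16 on the PBS arrays (difference -0.91, SE 0.102, limma adjusted p = 0.00318). The maternally expressed Cdkn1c, which encodes a cell cycle inhibitor, was also lower, at 7.37 and 7.25 in BLM, against 8.12 and 7.89 in PBS (difference -0.70, SE 0.112, limma adjusted p = 0.00984), a call lost without BLM replicate 2. Kcnq1, the potassium channel gene that contains the noncoding RNA, fell by 0.70 (limma adjusted p = 0.00659). Kcnq1ot1 and Kcnq1 overlap on opposite strands, and the sources used here do not say how their probes were kept apart. The growth-related imprinted genes Gnas, Nnat and Dcn differed by 0.07, 0.08 and 0.28 and were not past the threshold.

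**Figure D5:**
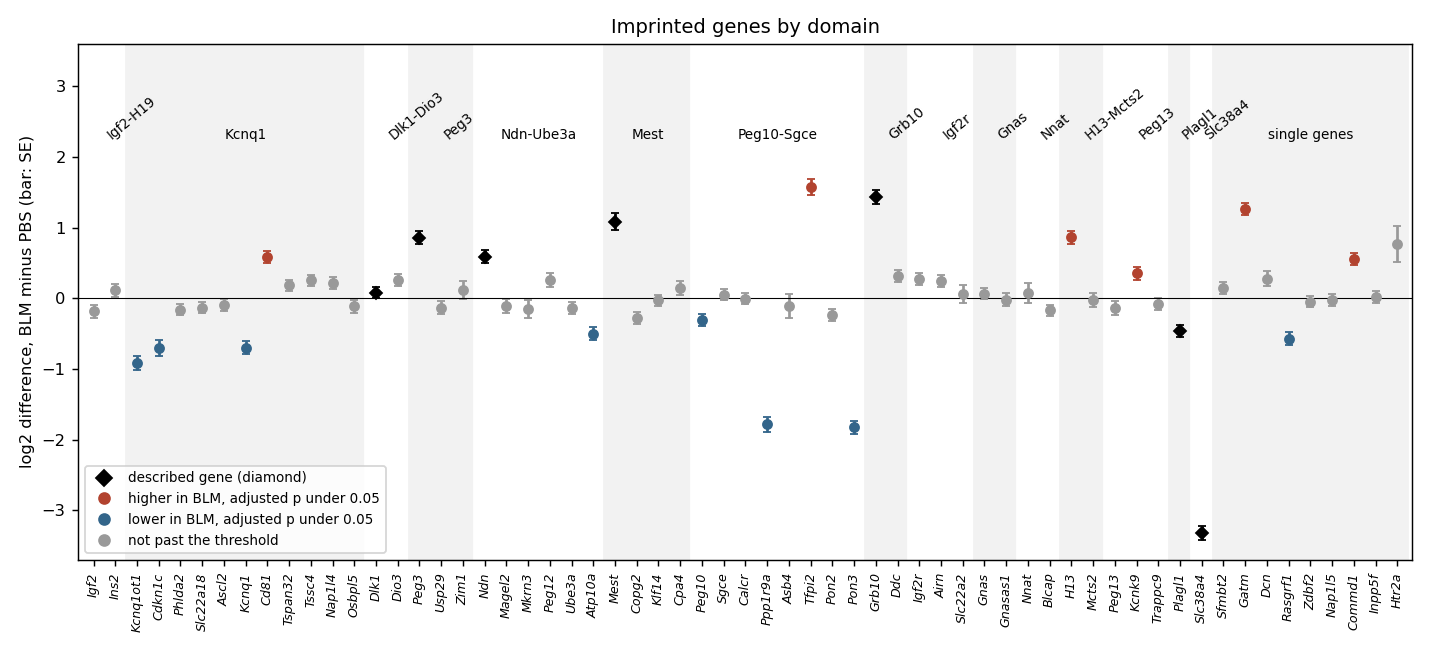
Log2 difference, BLM minus PBS (vertical axis, bars are SE), of the measured imprinted genes ordered by domain (horizontal axis), with black diamonds for the 7 described genes and circles for 54 others (red where higher, blue where lower at an adjusted p under 0.05, grey where not past it). Grb10, Mest, Peg3 and Ndn lie above the line while the other genes of their domains are mostly grey, and Tfpi2 at 1.57 lies opposite Ppp1r9a at -1.78 and Pon3 at -1.83 in the Peg10 domain.

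MicroRNA genes of imprinted clusters include a long row of them between Dlk1 and Dio3, near Meg3 and Rian, and Mir335 inside Mest. Of 49 listed, 36 were measured, 34 of them between Dlk1 and Dio3, and 13 appeared only in rows of several symbols. Of the 36, 4 rose and 32 were not past the threshold, which is 11.1% called against 20.4% of the 589 microRNA genes measured, and 28 of the 36 were dimmer than the median gene. The rows are gene rows of labelled total RNA. Whether they measured a mature microRNA or a longer transcript containing it was not stated. The levels below therefore belong to gene rows and cannot be assigned to a mature sequence. The mature sequences of RefSeq for these 4 genes and for Mir335, chosen for its place in Mest after its values were seen, are shown 5′ to 3′ with the seed, bases 2 to 8, in capitals, because the seed is what pairs with targets.
mmu-miR-335-5p: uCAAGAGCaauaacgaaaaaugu
mmu-miR-335-3p: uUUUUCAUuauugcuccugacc
mmu-miR-493-5p: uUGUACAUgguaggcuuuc
mmu-miR-493-3p: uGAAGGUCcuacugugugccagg
mmu-miR-758-5p: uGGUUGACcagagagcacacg
mmu-miR-758-3p: uUUGUGACcugguccacua
mmu-miR-539-5p: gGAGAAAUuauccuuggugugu
mmu-miR-544-5p: uCUUGUUAaaaagcagagucu
mmu-miR-544-3p: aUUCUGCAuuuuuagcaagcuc

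These 9 sequences have 9 different seeds, so none of the 4 genes shares a seed with another. Mir544 rose to 7.49 and 8.14 on the BLM arrays, against 5.99 and 6.10 on the PBS arrays (difference 1.77, SE 0.218, limma adjusted p = 0.00437). Mir493 was 6.07 and 6.11 in BLM, against 4.51 and 5.19 in PBS (difference 1.24, SE 0.224, limma adjusted p = 0.0142), a call lost without either BLM replicate. Both had wide spread within a group, Mir544 between the BLM arrays and Mir493 between the PBS arrays. Mir539 rose by 0.71 (limma adjusted p = 0.00614) and Mir758 by 0.66 (limma adjusted p = 0.00832), and the call of Mir758 was lost without BLM replicate 2. Mir335 was 6.64 and 6.87 in BLM, against 6.52 and 5.87 in PBS, a difference of 0.56 (limma adjusted p = 0.135) beside 1.08 for its host Mest, and it passed without PBS replicate 1. Lower calls appeared under other settings for Mir494, Mir487b and Mir483, and further higher calls for Mir136, Mir329, Mir667 and Mir1197. These were named after their values were seen. Mir483 differed by -0.36, and by -0.54 without PBS replicate 2. Mir494 differed by -0.34 (limma adjusted p = 0.0644) and passed as lower with the filter on dim genes, a trended prior, median centring and cyclic loess. Mir487b differed by -0.67 (limma adjusted p = 0.0749) and passed as lower with the replicate block, without PBS replicate 2 and with cyclic loess. With cyclic loess the microRNA genes thus gave 4 higher and 2 lower calls.

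Factors that set or keep imprints were listed as well. Of 14 measured, 2 rose, 3 fell and 9 were not past the threshold, which is 35.7% called against 25.3% of all genes. Dnmt1, the maintenance DNA methyltransferase, fell to 8.62 and 8.51 on the BLM arrays, against 9.17 and 9.17 on the PBS arrays (difference -0.60, SE 0.0856, limma adjusted p = 0.00675). The imprint-protecting zinc finger genes Zfp57 and Zfp445 fell by 0.48 and 0.50 (limma adjusted p = 0.0175 and 0.0193), while Trim28, the corepressor that they recruit, rose by 0.48 (limma adjusted p = 0.0161). Dnmt3a, a de novo methyltransferase gene, rose by 0.47 (limma adjusted p = 0.013). The calls of Zfp57, Zfp445, Trim28 and Dnmt3a were each lost when at least 1 array was left out, and that of Dnmt1 was kept. Ctcf, the insulator protein gene, and Uhrf1, the partner of Dnmt1, differed by -0.13 and -0.09 and were not past the threshold. Smchd1 differed by -0.29 (limma adjusted p = 0.0549) and passed as lower with the filter on dim genes, a trended prior and cyclic loess. Dnmt3b differed by 0.24 (limma adjusted p = 0.103) and passed as higher with the filter on dim genes.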

How the data were processed

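Total RNA of lung CD45-negative cells was labelled with biotin and hybridised to 4 arrays, per the labels. Per the submitters' processing notes, the authors used RMA and Affymetrix Expression Console, and the deposited table holds a log2 level for each transcript cluster. RMA subtracts background, forces the arrays onto a shared distribution and combines the probes of a cluster, which can compress large differences. Versions, the array build and steps after RMA were not given in the sources used here. Deposited levels reached 19.87, on PBS replicate 2. Whether a later scaling widened or narrowed the differences is not known, so fold values hold only on the deposited scale.

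Of 65956 transcript clusters, 30604 carried exactly 1 gene symbol and 2146 several, while 33206 are unnamed here. GEO's platform annotation supplied the symbols, 827 of them updated through Entrez identifiers. The highest-mean row was kept per gene (355 genes had more than 1), leaving 30142 genes. These were fitted with limma (3.58.1, under R 4.3.3), by lmFit and a two-sided eBayes test, with Benjamini-Hochberg adjustment over all genes, a threshold of 0.05, no covariate and no filter on dim probes. Every adjusted p is from this fit, which had 2 residual and 3.33 prior degrees of freedom, and the number of arrays limits the precision. The fit was tested on simulated data.

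The members and lists were chosen with earlier results of these data known. Named by rule were the members, 17 fixed genes, genes of lists with at most 14 measured, in longer lists the 5 highest and 5 lowest past the threshold, and the 3 genes on each side of Slc38a4. Deviations of BLM replicate 1 and PBS replicate 1 from their group means had a correlation of 0.014 over genes. With 2 arrays per group, the other pair must give the same value, so this is 1 check. It gave no sign of pairing but cannot exclude it. Alternatives were a replicate block, each array left out, cyclic loess, median centring, a filter on dim genes, a prior both trended and robust, averaging the rows of a gene, and dropping X and Y genes.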

Additional observations from a re-analysis of the deposited data

How the results depend on the processing

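No member and no called gene of the lists changed sign under the 11 alternatives, where they gave a value. Single genes of the lists lost their call in 37 combinations of gene and alternative and gained one in 35. Over all genes the count of 7629 called ran between 4003 (without BLM replicate 1) and 5956 with 1 array left out. Those left-out fits assume that the lone array varies like the other group, and fewer arrays alone lower the counts. The other imprinted genes gave 14 calls and 9 to 12 with 1 array left out, the IGF list 3 and 2 to 3, the Slc38 family 2 and 1 to 3, the imprint maintenance factors 5 and 1 to 3, and the microRNA genes 4 and 2 to 7. With the replicate block, calls were 6742 over all genes, 13 for the other imprinted genes and 2 for the IGF list. Relatives of the members gave 5 and the microRNA genes 6. Whether the array numbers pair the samples is not known. Leaving out X and Y genes gave 1 call for the Slc38 family and 2 for the relatives, because X-linked genes were removed. Cyclic loess moved 4 members by more than the pooled SD between arrays of a group, to 1.34 for Grb10, 0.45 for Ndn, 0.04 for Dlk1 and -0.54 for Plagl1, and the cause was not tested. Dlk1 gave no value with the filter on dim genes. Dlk1 and 28 of the 36 microRNA genes were dimmer than the median gene.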
